A study of Mus musculus with 12 samples.

Results

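The genes described here are 5 STAT transcription factors, *Stat3*, *Stat4*, *Stat5a*, *Stat5b* and *Stat6*, and 4 inhibitors of the CIS and SOCS family, *Cish*, *Socs1*, *Socs2* and *Socs3*. They were chosen by name, with earlier results of these data known. They are 9 of the 24346 genes with a value in each library, and all 9 passed the filter for low values that left 11395 genes to be tested. The libraries were RNA-seq libraries of lung ILC2s, group 2 innate lymphoid cells, from WT mice and from *Sema6d*-/- mice, which lack the membrane-bound guidance protein semaphorin 6D. The study asked how the loss of Sema6D changes lung ILC2s at rest and during acute inflammation induced by IL-33, an epithelial alarmin that binds the receptor ST2 on these cells. There were 12 libraries, 3 in each of 4 groups. The first group was WT given PBS, the second *Sema6d*-/- given PBS, the third WT given IL-33 and the fourth *Sema6d*-/- given IL-33. By the sample labels all mice were of the C57BL/6 strain, and by the methods of the study of a C57BL/6J background. They were treated intranasally for 3 days, with PBS as the vehicle. The sample labels give an IL-33 dose of 50 ng. The methods of the study name a larger dose, and the difference could not be settled. By the methods the mice were adults, and ILC2s were sorted from the lung as CD45+ Lin- Thy1.2+ ST2+ cells, with antibodies to CD3ε, NK1.1, F4/80, CD11c and FcγRIα among those of the lineage gate. The knockout was present in every cell of the mouse, so that values in *Sema6d*-/- ILC2s do not separate an effect in ILC2s from one in other lung cells.

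Cytokines that bind type I and type II receptors bring JAK kinases together, the kinases phosphorylate STAT proteins, and paired STATs enter the nucleus and bind DNA. CIS and the SOCS proteins are induced by many of these signals and act against them, by blocking the receptor or the kinase or by sending either for degradation, so that the mRNA of the inhibitors is often read together with the activity of the pathway. In ILC2s the pathway carries signals of IL-2, IL-7, IL-9 and TSLP through STAT5 and of IL-4 through STAT6, whereas IL-33 itself acts through MyD88 and NF-κB and not through a JAK kinase. Only mRNA was measured here. STAT phosphorylation, the usual measure of activity, was not.

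All values are FPKM, fragments scaled by the authors to transcript length and library size, which allow levels to be compared between genes per length. They carry no read totals. Relative depth, estimated from weakly expressed genes as stated under processing with WT IL-33 replicate 3 set to 1, was between 0.739 and 1.39, a 1.88-fold range. The PBS libraries held more values at 0 than the IL-33 libraries. Among 3617 genes whose mean lay from 5 to 20 FPKM, the share listed at 0 was 4.67% to 17.7% under PBS and 0.691% to 1.38% under IL-33. *Sema6d* itself was measured in every library. Under PBS it was at 27.5, 46.1 and 37.5 FPKM in WT, against 29.0, 22.9 and 19.8 FPKM in *Sema6d*-/- ILC2s. Under IL-33 it was at 19.7, 35.5 and 28.7 FPKM in WT, against 15.4, 13.6 and 13.8 FPKM in *Sema6d*-/- ILC2s. The genotypes overlapped under PBS and did not overlap under IL-33. A value for the whole gene cannot separate a deleted part of the transcript from the rest, so these values neither check nor contradict the genotype labels.

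All 11 ILC2 markers examined, among them *Gata3*, *Il1rl1*, *Il7r* and *Rora*, were above 1 FPKM in each of the 12 libraries. Their summed level was between 5763 FPKM in *Sema6d*-/- PBS replicate 2 and 8753 FPKM in *Sema6d*-/- PBS replicate 1. *Sema6d*-/- PBS replicate 2 also stood apart by NK cell markers. All 5 NK cell and ILC1 markers were above 1 FPKM there, with a sum of 113 FPKM and *Ncr1* the most abundant at 58.9 FPKM, whereas the sum was 0 to 6.99 FPKM in the other 11 libraries. Of the 9 macrophage markers, 4 were above 1 FPKM in the same library, as were 5 in *Sema6d*-/- IL-33 replicate 2, 4 in *Sema6d*-/- IL-33 replicate 3 and 0 to 3 in the others. Macrophage markers summed to 177 FPKM there, with *Lyz2* the most abundant at 112 FPKM, and to 427 FPKM in *Sema6d*-/- IL-33 replicate 2 and 146 FPKM in *Sema6d*-/- IL-33 replicate 3, where *Chil3* led with 394 and 83.1 FPKM. In the other 9 libraries the macrophage sum was 0.195 to 17.1 FPKM. Of 7 T cell markers, *Cd3g* made up nearly all of a sum of 189.7 to 483 FPKM in every library, and *Cd4* was listed at 0 throughout. In bulk samples such as these, fewer cells of a type and less RNA per cell cannot be told apart.

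*Cish* encodes CIS, an inhibitor that is induced by STAT5 and that binds phosphorylated receptor chains. It was the most abundant of the 9 genes per length in each of the 4 groups, and its mean FPKM exceeded that of 97.8% of the genes tested. Its range did not meet that of the next gene in any group. In WT it was at 743, 541 and 783 FPKM under PBS and at 405, 367 and 418 FPKM under IL-33. In *Sema6d*-/- ILC2s it was at 798, 558 and 622 FPKM under PBS and at 439, 394 and 377 FPKM under IL-33. Every IL-33 library lay below every PBS library, the highest of the 6 IL-33 libraries at 439 FPKM and the lowest of the 6 PBS libraries at 541 FPKM. The PBS libraries also spread more widely, with SDs of 130.1 FPKM in WT and 124 FPKM in *Sema6d*-/- ILC2s, against 26.1 and 32.2 FPKM under IL-33. Averaged over the genotypes, *Cish* fell by 0.74 on the log2(FPKM + 1) scale (standard error 0.12, limma, adjusted p = 0.0026), to 0.593 of its mean under PBS.

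*Socs2*, also known as a STAT5-induced gene, encodes the SOCS protein best known for limiting growth hormone signals. In WT it was at 98.6, 120.0 and 46.4 FPKM under PBS and at 22.2, 35.5 and 36.3 FPKM under IL-33. In *Sema6d*-/- ILC2s it was at 127, 81.7 and 49.3 FPKM under PBS and at 35.3, 25.7 and 30.8 FPKM under IL-33. Again no IL-33 library reached a PBS library, although replicate 3 of both PBS groups lay well below the other PBS libraries. *Socs2* fell by 1.38 on the log2 scale averaged over the genotypes (standard error 0.29, limma, adjusted p = 0.011), to 0.355 of its mean under PBS. *Cish* and *Socs2* were the 2 of 9 genes called lower under IL-33, and none was called higher. Among all genes tested, limma called 3.07% lower and 5.75% higher in this contrast, 8.82% in all, at an adjusted p under 0.05. At an unadjusted p under 0.05 there were 4 of the 9, with *Socs1* and *Stat5b*, and 22.7% of all genes. *Cish* and *Socs2* were also the 2 genes whose IL-33 libraries all lay below the PBS libraries, and none lay above. Of all genes 2.33% lay below in this way and 4.12% above, 6.46% in all. Without both *Sema6d*-/- PBS replicate 2 and *Sema6d*-/- IL-33 replicate 2, a choice made after seeing the data, *Socs2* differed by −1.32 and was no longer called (limma, adjusted p = 0.060), and its adjusted p lay between 0.0041 and 0.060 over all alternatives.

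*Socs1* encodes an inhibitor of the JAK kinases themselves, best known for limiting signals of interferons and of cytokines that use the common γ chain. It was at 42.9, 95.2 and 80.7 FPKM in WT, against 84.3, 66.4 and 74.7 FPKM in *Sema6d*-/- ILC2s under PBS. With IL-33 the values were 32.9, 40.5 and 45.0 FPKM in WT, against 57.9, 42.5 and 60.2 FPKM in *Sema6d*-/- ILC2s. WT PBS replicate 1 lay among the IL-33 libraries, so that the treatments overlapped, and the other 5 PBS libraries lay above all 6 IL-33 libraries. The log2 difference averaged over the genotypes was −0.65 (standard error 0.21) and did not pass the test (limma, adjusted p = 0.083). Without WT PBS replicate 1 it was −0.82 and passed (limma, adjusted p = 0.011), and over all alternatives the adjusted p lay between 0.011 and 0.19.

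*Socs3*, the inhibitor of signals through gp130 and STAT3, was the least abundant of the 4 inhibitors per length in each group. Under PBS it was at 16.2, 17.8 and 24.4 FPKM in WT, against 18.5, 15.8 and 21.2 FPKM in *Sema6d*-/- ILC2s. Under IL-33 it was at 9.84, 15.3 and 19.96 FPKM in WT, against 16.6, 17.0 and 16.7 FPKM in *Sema6d*-/- ILC2s. The treatments overlapped, with WT libraries at both the highest value, under PBS, and the lowest, under IL-33, and the log2 difference was −0.25 (standard error 0.24, limma, adjusted p = 0.57), with −0.13 without WT IL-33 replicate 1 and −0.36 without WT IL-33 replicate 3.

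**Figure D1:**
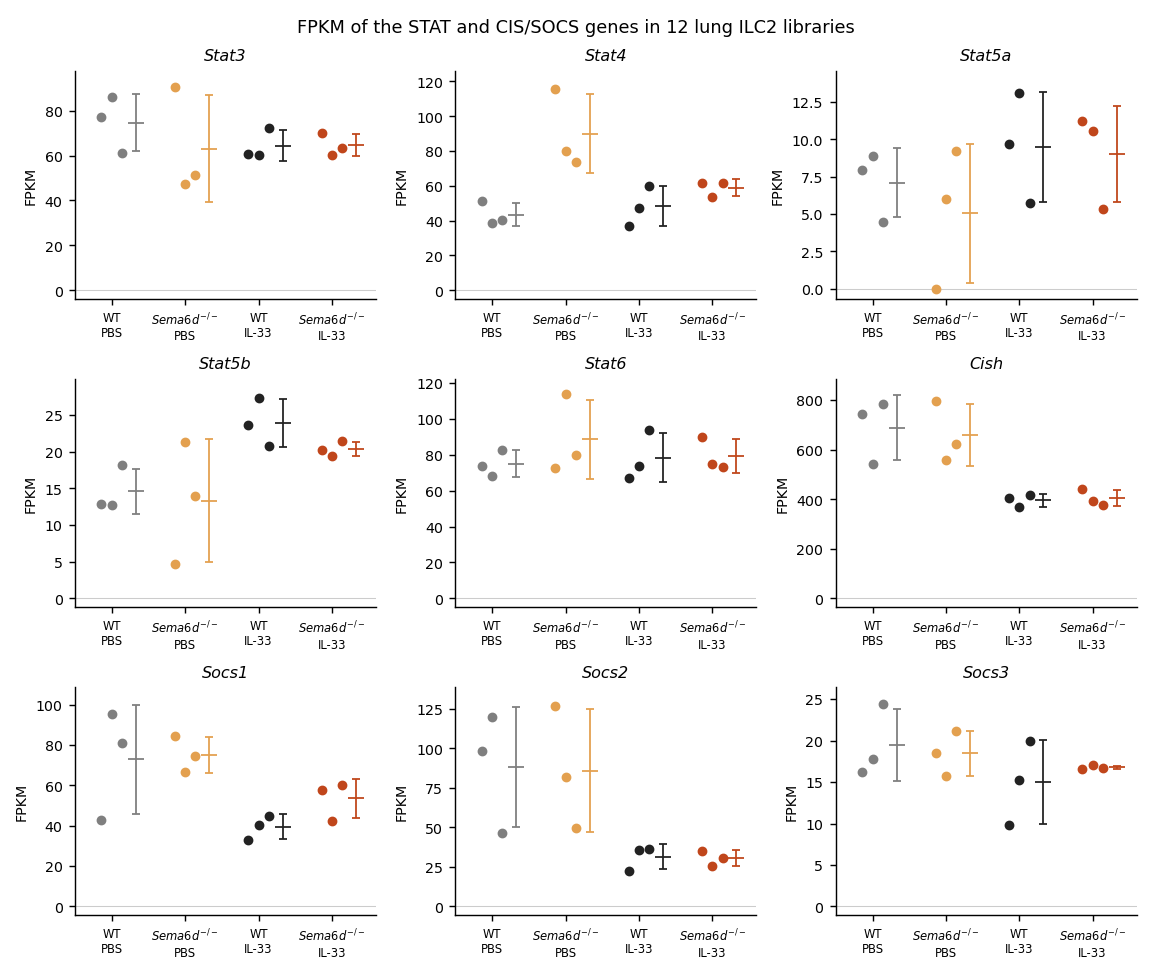
FPKM of the 5 STAT genes and the 4 CIS and SOCS genes in WT and *Sema6d*-/- lung ILC2s under PBS and IL-33; each point is a library, and the horizontal mark and bar beside the points are the mean and SD of 3 libraries. For *Cish* and *Socs2* the 6 IL-33 libraries, at 367 to 439 and 22.2 to 36.3 FPKM, all lie below the 6 PBS libraries, and for *Stat4* the *Sema6d*-/- PBS libraries lie above the WT PBS libraries.

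*Stat5a* and *Stat5b* encode the paralogous factors that carry signals of IL-2, IL-7, IL-9 and TSLP, and *Stat5b* was the more abundant per length in every library. *Stat5b* was at 12.8, 12.7 and 18.2 FPKM in WT, against 4.62, 21.4 and 13.9 FPKM in *Sema6d*-/- ILC2s under PBS. With IL-33 the values were 23.7, 27.3 and 20.8 FPKM in WT, against 20.3, 19.5 and 21.4 FPKM in *Sema6d*-/- ILC2s. The WT libraries did not overlap between the treatments, whereas *Sema6d*-/- PBS replicate 2, at 21.4 FPKM, lay within the IL-33 libraries. The log2 difference averaged over the genotypes was 0.74 (95% CI 0.04 to 1.44) and did not pass the test (limma, adjusted p = 0.19). Without single libraries it was 0.46, where *Sema6d*-/- PBS replicate 1 was left out, to 0.96. *Stat5a* was the least abundant of the 9 genes in each group. It was at 7.98, 8.86 and 4.48 FPKM in WT PBS libraries, and in *Sema6d*-/- PBS libraries it was listed at 0 in replicate 1 and was at 5.98 and 9.19 FPKM in the others. Under IL-33 it was at 9.69, 13.1 and 5.72 FPKM in WT, against 11.2, 10.5 and 5.34 FPKM in *Sema6d*-/- ILC2s. All groups overlapped, and the log2 difference was 0.79 (95% CI −0.40 to 1.97, limma, adjusted p = 0.44). It was 0.27 without *Sema6d*-/- PBS replicate 1, up to 1.11 without other single libraries, and up to 1.34 over all alternatives. The library that listed *Stat5a* at 0 was also the one with the lowest *Stat5b* and with the largest share of values at 0, 17.7% of the 3617 genes described above, and whether the 0 was a failed measurement was not tested. The summed FPKM of *Stat5a* and *Stat5b* was 20.8 to 27.4 FPKM in the other 5 PBS libraries and 26.5 to 40.4 FPKM across the IL-33 libraries.

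*Stat3*, which carries signals of IL-6 and IL-10, and *Stat6*, which carries those of IL-4 and IL-13, were the STAT genes with the highest levels per length in WT. *Stat3* was at 77.1, 86.0 and 60.9 FPKM in WT and 90.3, 47.4 and 51.4 FPKM in *Sema6d*-/- PBS libraries, and at 60.8, 60.2 and 72.2 FPKM in WT and 70.0, 60.4 and 63.3 FPKM in *Sema6d*-/- IL-33 libraries. All IL-33 values lay inside the range of the PBS values, with a log2 difference of −0.05 (95% CI −0.46 to 0.35, limma, adjusted p = 0.90). *Stat6* was at 73.9, 68.4 and 82.9 FPKM in WT and 72.7, 114 and 79.7 FPKM in *Sema6d*-/- PBS libraries, and at 67.3, 74.0 and 93.7 FPKM in WT and 89.9, 74.7 and 73.0 FPKM in *Sema6d*-/- IL-33 libraries. The treatments overlapped, with a log2 difference of −0.04 (95% CI −0.39 to 0.30, limma, adjusted p = 0.90). The highest *Stat6* value, 114 FPKM, was that of *Sema6d*-/- PBS replicate 2, the library with the NK cell markers, and the next highest PBS library was at 82.9 FPKM. The part of other cells in this value was not tested.

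*Stat4* carries signals of IL-12 and type I interferons and is best known from NK cells, ILC1s and Th1 cells. Under PBS it was at 51.1, 38.8 and 40.5 FPKM in WT, against 116, 79.8 and 73.9 FPKM in *Sema6d*-/- ILC2s. With IL-33 the values were 37.1, 47.5 and 60.0 FPKM in WT, against 61.8, 53.7 and 61.7 FPKM in *Sema6d*-/- ILC2s. The 3 *Sema6d*-/- PBS libraries were the highest of the 12, and the other 9 lay between 37.1 and 61.8 FPKM. Averaged over the genotypes, IL-33 and PBS libraries differed by −0.22 (standard error 0.18, limma, adjusted p = 0.52), and without single libraries by −0.30 to −0.12, the last without *Sema6d*-/- PBS replicate 1.

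Across the 9 genes, 7 log2 differences between IL-33 and PBS averaged over the genotypes were negative and 2, those of *Stat5a* and *Stat5b*, were positive, with a median of −0.22 against 0.16 over all genes tested. The median of all genes moved with the scaling, from 0.16 to −0.03 with quantile normalization, where 521 genes were called higher and 506 lower in place of 655 and 350. The 2 called genes moved little with it, to −0.73 for *Cish* and −1.38 for *Socs2*, and relative to the median of all genes before that scaling their changes were −0.90 and −1.54. None of the 9 directions changed with quantile normalization or with median ratio scaling, but 2 of the 7 negative ones did with other choices. *Stat3* differed by 0.032 with array weights and 0.089 without *Sema6d*-/- PBS replicate 1, and *Stat6* by 0.051 without *Sema6d*-/- PBS replicate 2, 0.0055 without WT IL-33 replicate 1 and 0.070 without the pair of libraries named for *Socs2*. Of 58 markers of other cells, *Cpa3* and *Epcam* were lower in all IL-33 libraries than in all PBS libraries, and none was higher in this way. Among those that overlapped was the B cell marker *Cd79b*, at 0 to 8.90 FPKM under PBS and 2.76 to 26.8 FPKM under IL-33. *Cpa3*, from the list of 4 basophil and mast cell markers, was at 63.2, 88.6 and 73.3 FPKM in WT PBS, 42.9, 89.3 and 50.0 FPKM in *Sema6d*-/- PBS, 29.9, 29.0 and 17.8 FPKM in WT IL-33 and 17.8, 22.8 and 40.0 FPKM in *Sema6d*-/- IL-33 libraries. The others of that list did not share this: *Fcer1a*, *Ms4a2* and *Mcpt8* were listed at 0 in all PBS libraries and were at most 2.99, 0.0521 and 0 FPKM under IL-33. The 5 epithelial markers summed to 38.1, 33.8 and 23.1 FPKM in WT PBS, 54.0, 44.7 and 44.3 FPKM in *Sema6d*-/- PBS, 18.9, 20.7 and 15.1 FPKM in WT IL-33 and 23.8, 5.54 and 109 FPKM in *Sema6d*-/- IL-33 libraries. *Epcam* was at 16.4 to 54.0 FPKM under PBS and 0 to 8.71 FPKM under IL-33. The means of 3 of the others were higher under IL-33: *Cdh1* was at 0 to 6.78 FPKM under PBS and 2.72 to 6.35 FPKM under IL-33, and *Sftpc* and *Sftpa1* were listed at 0 in all PBS libraries and were at 0 to 97.2 and 0 to 7.34 FPKM under IL-33. *Scgb1a1* was at 0 to 22.4 FPKM under PBS and 0 to 11.3 FPKM under IL-33. The share of values at 0 was also higher under PBS, as given above. The part of these differences in the results was not tested.

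Taken within WT, where IL-33 was compared with PBS at 3 libraries a side, 1 of 9 genes, *Cish*, was called, against 4.27% of all genes, with 1.61% lower and 2.66% higher. It was lower, with a log2 fold change of −0.78 (95% CI −1.15 to −0.41, limma, adjusted p = 0.025). This call was lost in 7 alternatives, among them the fits without WT PBS replicate 1 or 3 and without each of the 3 WT IL-33 replicates, with a log2 fold change between −0.94 and −0.68 over all alternatives and an adjusted p between 0.0097 and 0.16. The adjusted p was 0.075 and 0.061 without WT PBS replicates 1 and 3, and 0.083, 0.102 and 0.071 without WT IL-33 replicates 1, 2 and 3. *Socs2* differed by −1.39 in WT (limma, adjusted p = 0.083) and *Socs1* by −0.80 (limma, adjusted p = 0.18), and neither was called. Without WT PBS replicate 3, *Socs2* differed by −1.80 and was called (adjusted p = 0.026, 0.026 to 0.29 over the alternatives), and without WT PBS replicate 1, *Socs1* differed by −1.14 and was called (adjusted p = 0.031, 0.031 to 0.44 over the alternatives). An unadjusted p under 0.05 was found for 3 of the 9 and for 17.6% of all genes. For *Cish* and *Socs2* all 3 IL-33 libraries lay below all 3 PBS libraries and for *Stat5b* all 3 lay above. Of all genes 9.23% lay below and 15.9% above, 25.1% in all.

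Within *Sema6d*-/- ILC2s, limma called none of the 9 genes, against 2.84% of all genes, with 1.1% lower and 1.75% higher. An unadjusted p under 0.05 was found for 3 of the 9, *Cish*, *Socs2* and *Stat4*, and for 15.2% of all genes. *Cish* differed by −0.69 (95% CI −1.07 to −0.32, limma, adjusted p = 0.054) and *Socs2* by −1.37 (95% CI −2.26 to −0.48, limma, adjusted p = 0.11). Without *Sema6d*-/- PBS replicate 2, *Cish* differed by −0.81 and was called (limma, adjusted p = 0.038), and its adjusted p lay between 0.038 and 0.25 over the alternatives. For *Cish*, *Socs1*, *Socs2* and *Stat4*, all 3 IL-33 libraries lay below all 3 PBS libraries, and no gene of the 9 lay above. Of all genes 8.75% lay below and 13.9% above, 22.7% in all. These are separate contrasts with their own controls, and a call in WT alone does not show that the genotypes differ. The interaction of genotype and treatment tests that difference. It was 0.09 for *Cish* (95% CI −0.44 to 0.61, limma, adjusted p = 0.97) and 0.03 for *Socs2* (95% CI −1.23 to 1.28, limma, adjusted p = 0.998). No gene of the 9 passed in the interaction, in which limma called 0.0176% of all genes, with 0.00878% in each direction, and none of the 9 had an unadjusted p under 0.05, against 5.57% of all genes. Equal responses were not shown either, since the interval for *Cish* reached 0.61 beside a response of −0.78 in WT.

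**Figure D2:**
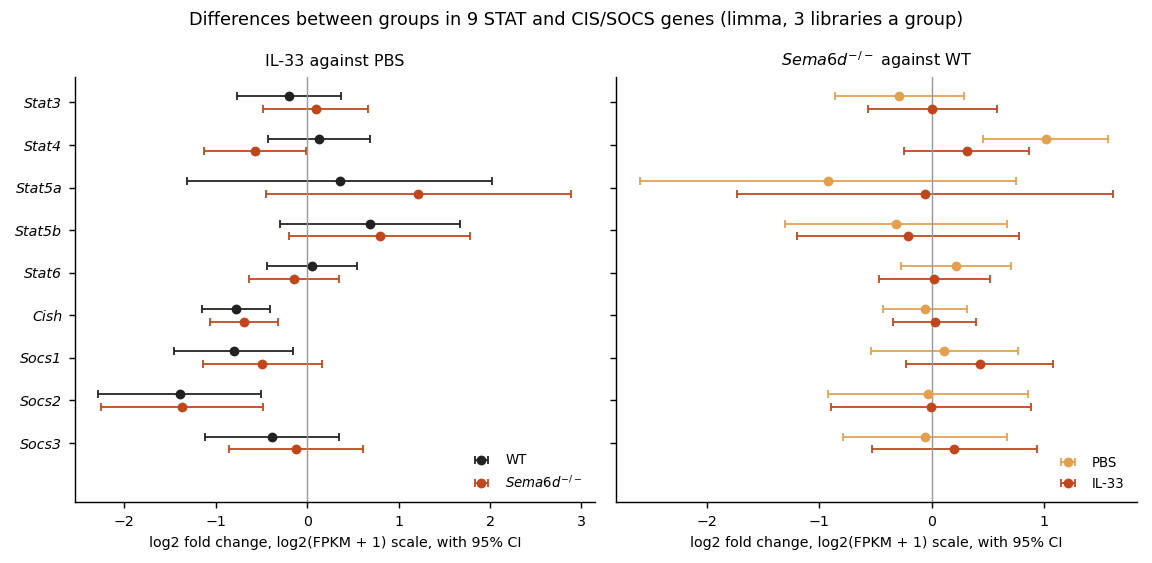
Log2 fold changes of the 9 genes on the log2(FPKM + 1) scale with 95% confidence intervals from limma, for IL-33 against PBS in WT and *Sema6d*-/- ILC2s (left) and for *Sema6d*-/- against WT under PBS and IL-33 (right). The intervals of *Cish* and *Socs2* lie below 0 on the left in both genotypes, as do those of *Socs1* in WT and *Stat4* in *Sema6d*-/- ILC2s, and on the right the interval of *Stat4* under PBS, 0.46 to 1.57, is the one that does not hold 0.

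*Sema6d*-/- against WT under IL-33, the comparison that asks what the loss of Sema6D changes during acute inflammation, gave no call among the 9 genes (limma), none with an unadjusted p under 0.05 and none whose groups did not overlap. Among all genes, limma called 0.00878%, 1 gene that was lower, 1.83% had an unadjusted p under 0.05, and 14.2% did not overlap, with 7.35% lower and 6.88% higher. The 9 log2 fold changes lay between −0.21 for *Stat5b* (−0.31 to −0.12 without single libraries) and 0.43 for *Socs1* (0.30 to 0.58), with a median of 0.02 against 0.01 over all genes. For *Cish*, at 397 ± 26.1 FPKM in WT and 404 ± 32.2 FPKM in *Sema6d*-/- ILC2s (SD, n = 3 each), the difference was smaller than either SD, and its interval was −0.35 to 0.40. For *Stat5a* the interval was far wider, −1.73 to 1.61, and by it a change of several-fold in either direction was not excluded. The spread behind both intervals was pooled over the 4 groups, so they do not measure the spread of the IL-33 libraries alone. For *Stat5a* it includes *Sema6d*-/- PBS replicate 1, which listed the gene at 0 and is not part of this comparison.

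Under PBS, limma again called none of the 9 genes between the genotypes, against 0.579% of all genes, with 0.246% lower and 0.333% higher. An unadjusted p under 0.05 was found for 1 of the 9, *Stat4*, and for 12.9% of all genes. *Stat4* was at 89.8 ± 22.7 FPKM in *Sema6d*-/- and 43.4 ± 6.67 FPKM in WT ILC2s (SD, n = 3 each), 2.07 times as high. All 3 *Sema6d*-/- libraries lay above all 3 WT libraries, the one such gene of the 9. Of all genes 4.42% lay above and 4.2% below, 8.63% in all. The log2 fold change was 1.01 (standard error 0.25, limma, adjusted p = 0.14) and did not pass. It was between 0.82 and 1.14 over the alternatives, with adjusted p between 0.082 and 0.91. Without *Sema6d*-/- PBS replicate 2, the library with NK cell markers, it was 1.08 (limma, adjusted p = 0.11), and the highest *Stat4* value, 116 FPKM, was that of *Sema6d*-/- PBS replicate 1. The 5 NK cell and ILC1 markers summed to 6.99, 0 and 4.78 FPKM in WT PBS and 0, 113 and 4.70 FPKM in *Sema6d*-/- PBS libraries. *Sema6d*-/- PBS replicate 1, with a sum of 0, also had the largest share of values at 0, and *Tbx21* made up the 4.70 FPKM. Of the 5 dendritic cell markers, *Xcr1* was at 1.09, 0.194 and 2.21 FPKM in WT PBS and 5.95, 7.40 and 10.4 FPKM in *Sema6d*-/- PBS libraries. *Itgax*, which encodes CD11c of the lineage gate, was listed at 0 in the PBS libraries other than *Sema6d*-/- PBS replicate 2, where it was at 2.83 FPKM, *Cd209a* at 0 in those other than *Sema6d*-/- PBS replicate 1, where it was at 0.114 FPKM, and *Flt3* and *Clec9a* at 0 in each. The part of these differences in the result was not tested. Under IL-33 the difference was 0.31 (95% CI −0.24 to 0.87), with 0.14 without WT IL-33 replicate 1 and 0.48 without WT IL-33 replicate 3, and the genotypes overlapped. The interaction for *Stat4* was −0.70 (95% CI −1.49 to 0.08, limma, adjusted p = 0.90). Averaged over the treatments, *Stat4* differed by 0.66 (limma, adjusted p = 0.41). None of the 9 genes was called in that contrast by limma, against 0.123% of all genes, with 0.0614% lower and 0.0614% higher. *Stat4* alone had an unadjusted p under 0.05, against 7.08% of all genes, and none of the 9 was without overlap, against 0.325% (0.158% lower and 0.167% higher).

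The order of the genes by mean FPKM was alike at its ends and changed in the middle. *Cish* was first and *Stat5a* last in all 4 groups. Under PBS in WT, *Socs2* followed at 88.4 ± 37.8 FPKM, then *Stat6*, *Stat3* and *Socs1* at 75.1 ± 7.30, 74.7 ± 12.7 and 72.9 ± 27.0 FPKM (SD, n = 3 each), and these 4 overlapped with their neighbours. *Stat4*, *Socs3* and *Stat5b* came next at 43.4 ± 6.67, 19.5 ± 4.36 and 14.6 ± 3.10 FPKM. Under IL-33 in WT, *Socs2* stood sixth at 31.3 ± 7.93 FPKM, below *Stat6*, *Stat3*, *Stat4* and *Socs1*, and *Stat5b*, at 23.9 ± 3.26 FPKM, stood above *Socs3*, at 15.0 ± 5.06 FPKM. The same order from first to ninth was seen under IL-33 in *Sema6d*-/- ILC2s. In *Sema6d*-/- PBS libraries *Stat4* was second, at 89.8 ± 22.7 FPKM, and overlapped with *Stat6* at 88.7 ± 22.0 FPKM. The summed FPKM of the 9 genes was 988 to 1311 in PBS libraries and 668 to 802 in IL-33 libraries, and *Cish* made up 53.1% to 68.6% of it.

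The other genes of the pathway were examined as 6 lists with 65 genes, 59 of which passed the filter. The calls for IL-33 against PBS averaged over the genotypes are given list by list in each direction for 5 of the 6 lists, and no total is given. None of the 59 was called between the genotypes under PBS, under IL-33 or over both, or in the interaction by limma. An unadjusted p under 0.05 was found for 5 of the 59 under PBS, against 12.9% of all genes, 3 under IL-33, against 1.83%, 3 over both, against 7.08%, and 2 in the interaction, against 5.57%. Without *Sema6d*-/- PBS replicate 1, 1 of the 59 was called under PBS, *Ifngr1*, a chain of the interferon-γ receptor named after its values were seen, which differed by −0.69 (limma, adjusted p = 0.039, with 0.039 to 0.85 over its alternatives) and by −0.46 with all libraries (adjusted p = 0.33).

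Of 13 genes of JAK-STAT ligands tested, 4 were called lower and 2 higher, against 3.07% lower and 5.75% higher among all genes. *Il2*, the growth factor that signals through STAT5, was between 228 and 633 FPKM in the 6 PBS libraries and between 42.6 and 66.5 FPKM over the 6 IL-33 libraries. It fell by 2.69 on the log2 scale (standard error 0.19, limma, adjusted p = 1.1e-05). *Lif*, a cytokine that signals through gp130 and STAT3, fell by 2.33 (standard error 0.17, limma, adjusted p = 1.1e-05), from 224 ± 56.3 to 42.7 ± 6.34 FPKM (SD, n = 6 each). *Csf2*, which encodes GM-CSF and was the most abundant ligand gene, fell by 1.22 (limma, adjusted p = 4.5e-05), from 2810 ± 403 to 1203 ± 142 FPKM (SD, n = 6 each). For these 3 genes no IL-33 library reached a PBS library, each was called in both genotypes, and each kept its call under all 21 alternatives. Of all genes 2.33% lay below in this way, and limma called 1.61% lower in WT and 1.1% lower in *Sema6d*-/- ILC2s. The 3 were named from the calls averaged over the genotypes, so these further results are not independent of that choice. *Il6*, which signals through gp130 and STAT3, was called higher, at 83.8 to 175 FPKM across the IL-33 libraries and at 0 to 40.1 FPKM in the PBS libraries, 2 of which listed it at 0, with a log2 difference of 3.90 (standard error 0.89, limma, adjusted p = 0.017). The remaining called ligand genes were *Il5*, which fell by 0.81 (limma, adjusted p = 0.018) and was named after its values were seen, and *Il13*, which rose by 2.22 (limma, adjusted p = 0.0499). Both encode type 2 cytokines of ILC2s, and both overlapped between the treatments. The call of *Il13* was lost in 15 of the 21 alternatives, with adjusted p between 0.014 and 0.12, and among the fits without 1 library it held without *Sema6d*-/- PBS replicate 1 or 3 alone. That of *Il5* was lost without *Sema6d*-/- IL-33 replicate 2 (adjusted p = 0.052) and with eBayes without trend (0.070), the highest of its range from 0.0074. That of *Il6* was lost with a pseudocount of 0.1 (adjusted p = 0.066, with 0.0044 to 0.066 over its alternatives). The log2 difference of *Il6* was 5.05 with that pseudocount. It was 3.10 without *Sema6d*-/- PBS replicate 2, a library that listed *Il6* at 0. The number of ligand genes called was 4 to 7 over the alternatives, with 4 without *Sema6d*-/- IL-33 replicate 2.

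Of 18 receptor chain genes tested, 4 were called lower and none higher by limma, against 3.07% lower and 5.75% higher among all genes. *Il2ra*, which encodes the high-affinity IL-2 receptor chain CD25, was at 96.2, 122 and 112 FPKM in WT, against 103, 100.4 and 132 FPKM in *Sema6d*-/- ILC2s under PBS. Under IL-33 it was at 18.98, 27.7 and 25.6 FPKM in WT, against 47.5, 29.4 and 35.3 FPKM in *Sema6d*-/- ILC2s. The treatments lay far apart in both genotypes, and *Il2ra* fell by 1.86 on the log2 scale (standard error 0.18, limma, adjusted p = 6.0e-05). *Il10ra*, the ligand-binding chain of the IL-10 receptor, fell by 1.30 (limma, adjusted p = 0.0011), and *Il4ra*, a chain shared by the receptors of IL-4 and IL-13, fell by 0.91 (limma, adjusted p = 0.022). *Il2rg*, the common γ chain and the most abundant receptor gene per length, fell by 0.33 (limma, adjusted p = 0.0050), from 2864 ± 221 to 2269 ± 130.0 FPKM (SD, n = 6 each). All 4 were without overlap, and of all genes 2.33% lay below in this way and 4.12% above. The 4 were named because they were called, so their lack of overlap is not independent of that choice. The calls of *Il2ra* and *Il10ra* held under all 21 alternatives. That of *Il4ra* was lost without WT IL-33 replicate 1 or *Sema6d*-/- IL-33 replicate 1 or 2 (adjusted p = 0.059, 0.060 and 0.054, with 0.0086 to 0.060 over its alternatives), and that of *Il2rg* with quantile normalization or eBayes without trend (adjusted p = 0.068 and 0.25, with 0.0042 to 0.25 over its alternatives). The receptor chains *Il2rb* and *Il7r*, whose ligands also signal through STAT5 and which were named after their values were seen, differed by −0.00 and 0.09 and were not called.

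**Figure D3:**
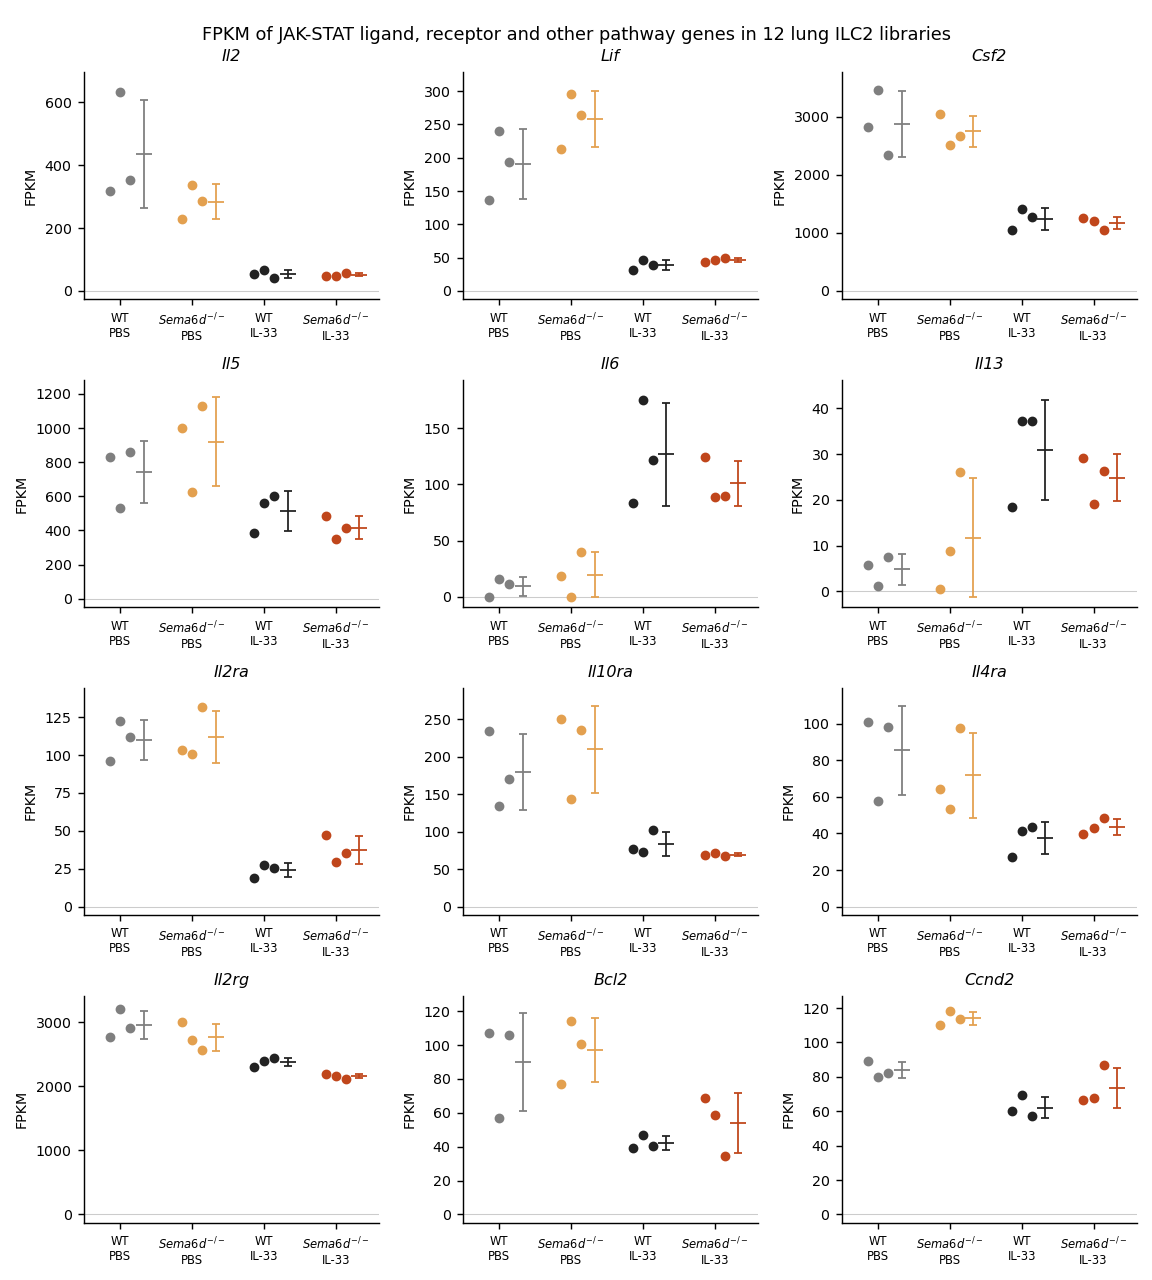
FPKM of 12 called genes of the pathway lists under IL-33 against PBS averaged over the genotypes, in WT and *Sema6d*-/- lung ILC2s; each point is a library, and the mark and bar beside the points are the mean and SD of 3 libraries. *Il2*, *Lif*, *Csf2*, *Il2ra*, *Il10ra*, *Il4ra* and *Il2rg* lie lower in all 6 IL-33 libraries than in any PBS library, and *Il6* lies higher.

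None of the 4 JAK kinase genes was called. *Jak1*, the most abundant, was at 168 ± 19.2 FPKM under PBS and 132 ± 7.23 FPKM under IL-33 (SD, n = 6 each) without overlap, a log2 difference of −0.34 (limma, adjusted p = 0.072). Of 9 known STAT target genes, 2 were called lower and none higher, against 3.07% lower and 5.75% higher among all genes, and the number called was 0 to 2 over the alternatives: *Bcl2*, which protects cells from apoptosis, fell by 0.95 (limma, adjusted p = 0.021), and *Ccnd2*, a cyclin of the G1 phase, fell by 0.53 (limma, adjusted p = 0.026). Neither call held without WT IL-33 replicate 1 (adjusted p = 0.056 and 0.060) or 3 (0.056 and 0.067). The call of *Bcl2* was also lost without *Sema6d*-/- IL-33 replicate 3 (0.0501), and that of *Ccnd2* without *Sema6d*-/- IL-33 replicate 1 (0.067) or 2 (0.071). Over their 21 alternatives the adjusted p was 0.0066 to 0.070 for *Bcl2*, with 4 calls lost, and 0.010 to 0.086 for *Ccnd2*, with 8 lost. *Pim1*, a kinase gene induced by STAT5 and STAT3 and the most abundant of the list, differed by −0.14 (limma, adjusted p = 0.90). Under IL-33 it was at 44.3 to 64.9 FPKM in WT and at 54.4 to 421 FPKM in *Sema6d*-/- ILC2s. Under PBS it was at 53.6 to 102 FPKM in WT and at 57.0 to 331 FPKM in *Sema6d*-/- ILC2s. It was not called between the genotypes. None of 10 other negative regulators, phosphatases and PIAS genes among them, was called, and *Ptprc*, which encodes the phosphatase CD45 and was the most abundant of them, differed by −0.05 (limma, adjusted p = 0.82).

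The most similar patterns over the 12 libraries were sought among 7411 genes that averaged 5 FPKM or more, by Pearson's r on the log2(FPKM + 1) scale. The points share treatment and depth, so that r is a description. For *Cish* they were *Zc3hav1*, *Aff4* and *Nedd4* (r = 0.97, 0.96 and 0.96), and for *Socs2* they were *March7*, *Spcs3* and *Csf2* (r = 0.95, 0.92 and 0.92). For *Socs1* they were *Elovl5*, *Pik3ip1* and *Chm* (r = 0.90, 0.90 and 0.89), and *Elovl5* was also among those of *Socs3*, with *Gmip* and *Mex3c* (r = 0.80, 0.80 and 0.79). For *Stat5a* they were *Wdr61*, *Atxn10* and *Pigq* (r = 0.96, 0.94 and 0.94), for *Stat5b* *Vps29*, *Usp1* and *Spn* (r = 0.96, 0.95 and 0.95), for *Stat3* *Nfrkb*, *Rbmx2* and *Luc7l3* (r = 0.95, 0.93 and 0.92) and for *Stat4* *Eri3*, *1600012H06Rik* and *Ptprc* (r = 0.91, 0.86 and 0.86). Those of *Stat6* were *Fasl*, *Gzma* and *Ncr1* (r = 0.92, 0.83 and 0.81), genes of cytotoxic lymphocytes. Without *Sema6d*-/- PBS replicate 2 the same correlations were 0.80, 0.57 and 0.49. Those of *Stat5a* were 0.71, 0.65 and 0.59 without *Sema6d*-/- PBS replicate 1, which listed *Stat5a* at 0. Without WT IL-33 replicate 1, that of *Elovl5* with *Socs3* was 0.58 and that of *Mex3c* 0.46. Among the 9 genes themselves, the highest r was 0.79 for *Stat5a* with *Stat5b*, which was 0.10 without *Sema6d*-/- PBS replicate 1, followed by 0.75 for *Cish* with *Socs2*, and the lowest was −0.75 for *Stat5b* with *Socs2*.

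In the GRCm38 build (GENCODE vM21) *Stat5b*, *Stat5a* and *Stat3* lie next to each other on chromosome 11, at chr11:100780731-100850724, chr11:100859351-100885169 and chr11:100885098-100939540. *Stat5b* and *Stat5a* are 8626 bases apart, and *Stat5a* and *Stat3* share 72 exonic bases on opposite strands. *Stat5a* and *Stat5b* transcripts also share 387 windows of 75 bases, the read length, which are 5.12% of the windows of *Stat5a* and 6.99% of those of *Stat5b*, so that reads in these stretches could be assigned to either. *Socs3* lies apart on the same chromosome, at chr11:117966079-117970047. *Cish* is at chr9:107296026-107302784, *Socs1* at chr16:10782240-10785536, *Socs2* at chr10:95385362-95417180, *Stat6* at chr10:127642986-127660957 and *Stat4* at chr1:51987148-52107189. *Stat4* shares 1033 of 3872 exonic bases (26.7%) with the non-coding gene *Gm28177* on the same strand, *Cish* shares 261 and 479 of 6419 with *Gm17040* and *Gm17041* on the opposite strand, and *Stat6* shares 40 with *Nab2* on the opposite strand. *Gm28177*, *Gm17040* and *Gm17041* had no value in these data, whereas *Nab2* had. Whether strand was used in counting is uncertain, since the methods name a stranded kit and the labels kits that do not mark strand. Reads in the stretches on opposite strands may therefore have been shared. Strand would not separate *Stat4* from *Gm28177*. *Nab2* was at 1.33 to 10.1 FPKM, well below *Stat6* in every library.

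STAT proteins bind palindromes of the form TTCNNNGAA, where N is any base, and STAT6 also binds the form with 4 free bases. Both read the same on either strand. Promoters of 8 of the 9 genes, 11 in all, were in the RefSeq table for GRCm38.p6, with 250 bases before and 50 after each annotated start. *Socs2* was not matched. TTCNNNGAA was present for 2 of the 8 genes, *Cish* and *Socs3*, and the form with 4 free bases for none. Of all 32851 promoters in the table, 8.3% held TTCNNNGAA at least once and 6.95% held the other form. These shares are by promoter, whereas the count of genes takes a match in any promoter of a gene. Counted by gene, 7 of 45 matched genes of the pathway lists, with 53 promoters, held TTCNNNGAA and 6 the other form. *Cish* held 2 matches, and 0.457% of all promoters held 2 or more. They are shown because *Cish* was the most abundant of the 9 genes and fell under IL-33. One begins at the RefSeq start and the other 11 bases downstream, at chr9:107296654-107296683 on the plus strand, within a 5′ UTR exon of *Cish* in GENCODE. The match of *Socs3*, which did not pass the test, is shown for comparison. It lies 154 bases upstream of the RefSeq start, at chr11:117969502-117969530 on the minus strand, within an intron of a non-coding *Socs3* transcript. The matches are in capitals, and they are letters in these windows, not measured sites.
Cish: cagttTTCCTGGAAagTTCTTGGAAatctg
Socs3: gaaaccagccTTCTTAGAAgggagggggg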

How the data were processed

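The deposited FPKM values were made by the authors. Per their processing notes, reads were mapped to mm10 with TopHat2 2.1.1 and Bowtie2, and Cuffdiff 2.2.1 gave FPKM. The methods of the study name an earlier TopHat release and Cuffnorm, and the difference could not be settled. From the 24346 genes in each file, those with a mean of at least 0.5 FPKM, 11395 genes, were tested on the log2(FPKM + 1) scale with limma 3.58.1 (lmFit, eBayes with trend) in R 4.3.3, as 4 group means with 8 residual degrees of freedom and 7 contrasts. A fold change on this scale understates weakly expressed genes. Adjusted p is Benjamini-Hochberg over all genes tested, two-sided, and a gene is called at an adjusted p under 0.05. Relative depth was estimated from 1727 weakly expressed genes, those under 3 FPKM in each library and above 0 in at least 4, as the commonest ratio to WT IL-33 replicate 3. In the other 11 libraries 37 to 83 of the 463 to 1149 genes compared lay within 0.003 of it on the log2 scale, and 23 to 42 within 0.003 of the next commonest ratio, at least 0.05 away. Whole reads were not recovered and no count test was run. No overlap means that the values of all libraries of one side lie above those of the other. Tables and plots used Python 3.11.15, numpy 2.4.6, pandas 2.3.3 and matplotlib 3.10.9.

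All 9 genes were named, with 6 pathway lists. Of each pathway list the rule named the most abundant gene, up to 4 called genes with the largest absolute log2 difference in IL-33 against PBS averaged over the genotypes, and any gene called in a genotype contrast or the interaction. Further, it named the 3 genes with the highest Pearson's r to each of the 9. The genes and lists were chosen with earlier results of these data known, and the rules and alternatives were fixed before the data were examined here. Alternatives were quantile normalization, median ratio scaling, a pseudocount of 0.1, no filter, a filter at 2 FPKM, array weights, eBayes without trend, a replicate block, fits restricted to the groups of a contrast, and leaving out each library in turn. One alternative, without *Sema6d*-/- PBS replicate 2 and *Sema6d*-/- IL-33 replicate 2, was chosen after seeing the data.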

Additional observations from a re-analysis of the deposited data

How the results depend on the processing

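Of 1134 values of the 9 genes under the alternatives, 1050 kept their direction and their side of the threshold, 71 changed direction, 8 fell short of it and 5 newly passed it. Directions changed in 28 of 63 combinations of gene and contrast, and no called value changed direction. The number of the 9 genes called in WT, 1, was 0 with eBayes without trend and 0 in a fit of only the groups compared, and 0 to 1 without single libraries. In *Sema6d*-/- ILC2s the number, 0, became 1 with the replicate block (*Cish*, adjusted p = 0.048, with 0.038 to 0.25 over its alternatives), and it was 0 to 1 without single libraries. Averaged over the genotypes it was 2, became 1 without *Sema6d*-/- PBS replicate 2 and *Sema6d*-/- IL-33 replicate 2, which was chosen after seeing the data, and was 2 to 3 without single libraries. Replicate numbers carried no pairing that could be seen, with correlations of −0.0468 to 0.0448 between equal numbers of different groups. Among all genes, the calls for IL-33 against PBS without single libraries were 202 to 600 in WT (486 with all), 122 to 476 in *Sema6d*-/- ILC2s (324 with all, and 184 without the pair of libraries named above) and 660 to 1244 averaged (1005 with all). For the genotypes under IL-33, the 1 call became 0 with quantile normalization, 2 with a pseudocount of 0.1, 55 with array weights, 0 with only the groups compared, 2 without the pair of libraries and 0 to 3 without single libraries. Under PBS the 66 calls became 36 with quantile normalization, 33 with no filter, 1 with array weights, 15 with the replicate block, 1 with only the groups compared and 78 to 213 without single libraries. Averaged over the treatments the 14 calls became 9 with no filter and 7 to 44 without single libraries. In the interaction the 2 calls became 5 with a pseudocount of 0.1, 7 with eBayes without trend, 1 with the replicate block and 0 to 25 without single libraries. Log2 differences that changed direction with other settings were those of *Stat3* for IL-33 averaged over the genotypes (0.032 with array weights), *Cish* between the genotypes averaged over the treatments (0.014 with quantile normalization) and *Stat5b* in the interaction (−0.074 with array weights). With single libraries left out, or the pair where it gave the outer value, the log2 differences that changed direction had these ranges. For IL-33 in WT they were −0.037 to 0.30 for *Stat4* and −0.084 to 0.15 for *Stat6*. For IL-33 in *Sema6d*-/- ILC2s they were −0.079 to 0.38 for *Stat3* and −0.27 to 0.089 for *Stat6*. Averaged over the genotypes they were −0.14 to 0.089 for *Stat3* and −0.11 to 0.070 for *Stat6*. Between the genotypes under IL-33 they were −0.053 to 0.090 for *Stat3*, −0.35 to 0.24 for *Stat5a*, −0.077 to 0.16 for *Stat6*, −0.038 to 0.072 for *Cish*, −0.23 to 0.11 for *Socs2* and −0.057 to 0.42 for *Socs3*. Under PBS they were −1.57 to 0.10 for *Stat5a*, −0.75 to 0.25 for *Stat5b*, −0.23 to 0.050 for *Cish*, −0.23 to 0.34 for *Socs1*, −0.44 to 0.31 for *Socs2* and −0.17 to 0.11 for *Socs3*. Averaged over the treatments they were −0.82 to 0.021 for *Stat5a*, −0.48 to 0.017 for *Stat5b*, −0.10 to 0.045 for *Cish*, −0.22 to 0.15 for *Socs2* and −0.059 to 0.18 for *Socs3*. In the interaction they were −0.16 to 1.51 for *Stat5a*, −0.46 to 0.57 for *Stat5b*, −0.32 to 0.039 for *Stat6*, −0.026 to 0.25 for *Cish* and −0.32 to 0.43 for *Socs2*. For each of these the cause was not tested. A group with a library left out held 2 libraries, and the spread was pooled over all groups. Read totals were not used here, so that the precision of each FPKM value is unknown, and 3 libraries a group limit what a value near a threshold can show.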
